A study of Mus musculus with 24 samples.

Results

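The 10 genes described here are a set that mast cells and basophils are known for: Cpa3, Fcer1a, Ms4a2, Gata2, Mcpt8, Prss34, Cma1, Tpsb2, Hdc and Il4. They were chosen by name, with earlier results of these arrays known, among them the comparison of transgenic with control cells at DN1, so that comparison is given below as a description without a test. Of the 10 members, 9 have a probe set on the array, out of 18193 genes measured by a probe set of a single gene. Prss34, a tryptase-like serine protease of basophils, is not named by any probe set in the annotation used, and has no value here. Each of the other 9 was read from its main probe set, the one with the highest mean signal over all 24 arrays. These probe sets are 1448730_at for Cpa3, 1421775_at for Fcer1a, 1443264_at for Ms4a2, 1450333_a_at for Gata2, 1449965_at for Mcpt8, 1449456_a_at for Cma1, 1422180_a_at for Tpsb2, 1454713_s_at for Hdc and 1449864_at for Il4.

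The arrays were hybridized with RNA of sorted CD4 and CD8 double-negative thymocytes from 2 kinds of mice. The transgenic mice were IgHμ-TLX1TgPrkdcScid/Scid (TLX1, HOXSCID in the labels), in which the IgHμ promoter drives TLX1 mainly in B cells and, through leaky activity, in thymocytes and myeloid progenitors. The control mice were Prkdc Scid/Scid, and carried the same homozygous mutation without the transgene. Per the labels the mice were outbred ICR animals aged 6 to 8 weeks, whereas the study's records start at 4 weeks for some pools and its methods put the TLX1 parent line on the CD1 background. There were 4 pools of TLX1 mice and 4 pools of control mice, each of 2 to 5 animals, and every pool gave a DN1, a DN2 and a DN3 array with no other treatment. Females made up TLX1 pools 1 and 4 as well as control pools 2 and 4, and males the remaining pools. The pool is the replicate, so every group below has n = 4. The sort used antibodies to 4 proteins. DN1 cells were CD44+CD25-, DN2 cells CD44+CD25+ and DN3 cells CD44-CD25+, and none of the 4 antibodies is specific for mast cells, basophils or other myeloid cells. The labels also call the sorted cells B220 and CD3 negative. A limit of the model is that the Prkdc mutation blocks V(D)J recombination in all groups, which stops thymocytes at DN3.

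Mast cells and basophils are granulocytes that carry IgE on the high-affinity receptor FcεRI and, when antigen crosslinks it, release histamine, proteases, lipid mediators and cytokines. Fcer1a encodes the IgE-binding α chain of this receptor and Ms4a2 its signal-amplifying β chain. Gata2 encodes a zinc finger transcription factor needed for mast cell and basophil development and also active in blood stem and progenitor cells. Cpa3 (carboxypeptidase A3), Cma1 (mast cell chymase) and Tpsb2 (tryptase β2) encode granule proteases of mast cells, and Mcpt8 encodes a serine protease known as a basophil marker in mice. Hdc encodes histidine decarboxylase, which makes histamine, and Il4 encodes the type 2 cytokine interleukin 4. Cpa3 is also known to be transcribed in early blood progenitors and early thymocytes.

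The promoter sequences of the receptor subunits, of Cpa3 and of Mcpt8 are shown because the first 3 hold the letters of a GATA motif and the genes differed at DN2. There Cpa3 kept a clear signal, Mcpt8 was close to the array medians (11.7 to 27.6) and the receptor genes were near background. Gata2, whose windows are not shown, also stayed above its array medians at DN2. Cma1, whose window holds GATAA and is not shown, was near background at DN2. Whether the letters relate to the signals was not tested. Each sequence is the 250 bases before the start of the gene from RefSeq (build GRCm38.p6), 5′ to 3′ on the gene's strand, which is the minus strand for all 4. Capitals mark GATAA or CATGTG (an E-box), on either strand, so TTATC and CACATG are marked too, and no marked stretches overlap. Cpa3 lies at chr3:20242182-20242431, Fcer1a at chr1:173227230-173227479, Ms4a2 at chr19:11623720-11623969 and Mcpt8 at chr14:56085198-56085447.
Cpa3: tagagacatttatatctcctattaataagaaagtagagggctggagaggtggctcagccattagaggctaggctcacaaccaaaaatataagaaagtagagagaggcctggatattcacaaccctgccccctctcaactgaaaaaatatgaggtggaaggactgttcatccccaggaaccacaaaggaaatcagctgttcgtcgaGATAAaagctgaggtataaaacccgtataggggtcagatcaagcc
Fcer1a: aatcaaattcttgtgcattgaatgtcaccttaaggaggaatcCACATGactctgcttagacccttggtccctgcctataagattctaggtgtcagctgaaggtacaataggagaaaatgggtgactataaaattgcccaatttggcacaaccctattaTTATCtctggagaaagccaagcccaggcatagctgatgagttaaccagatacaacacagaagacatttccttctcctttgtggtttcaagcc
Ms4a2: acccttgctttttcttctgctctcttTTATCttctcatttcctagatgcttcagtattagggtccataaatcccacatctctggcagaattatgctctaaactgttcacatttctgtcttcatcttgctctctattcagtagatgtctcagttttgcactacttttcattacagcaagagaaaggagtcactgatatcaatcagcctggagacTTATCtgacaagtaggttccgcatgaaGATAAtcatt
Mcpt8: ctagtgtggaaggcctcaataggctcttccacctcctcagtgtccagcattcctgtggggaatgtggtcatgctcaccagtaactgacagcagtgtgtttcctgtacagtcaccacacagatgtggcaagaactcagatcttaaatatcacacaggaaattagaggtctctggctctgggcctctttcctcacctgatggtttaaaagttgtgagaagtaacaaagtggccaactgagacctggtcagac
GATAA was found in the windows of 5 of the 9 members with a promoter entry (Cma1, Cpa3, Fcer1a, Ms4a2 and Prss34), and in 22.6% of all 32851 windows of the same length. The Ms4a2 window held it at 3 places, and Cpa3 held it 45 bases before the start. CATGTG was found in the windows of Fcer1a, Il4 and Prss34, and in 12.3% of all windows. Neither was found in the Mcpt8 window. These are matches of letters and not binding sites. A member was counted if any of its windows held the letters (Gata2 and Il4 had 2 windows each), while the shares are per window.

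Values are MAS5 signals, which the authors scaled to a trimmed mean of 150 on every array, and a signal below its own array's median (15.1 to 24.3) is called near background. DN1 arrays of TLX1 pool 2 and control pool 3 stood apart from the other 6. Ptcra, the pre-TCR α chain, had a signal of 677 and 1296 there and of 20.8 to 102 on the others, and Rag1, a V(D)J recombinase subunit, had 3193 and 3769 there and 35.5 to 199 on the others (2 genes chosen after their values were seen). The study's sorting records also list many cells outside the gates for these pools. The DN1 differences between TLX1 and control are therefore given with and without them. An index of RNA quality was taken from Actb and Gapdh as the mean log2 excess of 3′ over 5′ signal of their controls. At DN1 the index averaged 0.06 ± 0.07 (SD) over TLX1 pools, against 0.26 ± 0.16 over control pools. The DN2 averages were 0.22 ± 0.11 and 0.52 ± 0.33, and those of DN3 0.18 ± 0.11 and 0.53 ± 0.03, TLX1 given before control. Its part in the genotype differences was not tested.

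Mast cell and basophil transcripts were found in the DN1 fraction of both genotypes. Of the 72 signals of the 9 measured members at DN1, 3 were near background, against 50 of 72 at DN2 and 57 of 72 at DN3. The 3 at DN1 were Tpsb2 in TLX1 pool 4 and control pool 4 and Hdc in TLX1 pool 3. Fcer1a, Ms4a2, Cma1, Tpsb2, Hdc and Il4 were near background on all 16 DN2 and DN3 arrays. These 6 genes entered the fit only through their DN1 signal, so that a lower value at DN2 and DN3 was built into their selection for the test. In a bulk sample, fewer cells of a type and less RNA per cell cannot be told apart.

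**Figure D1:**
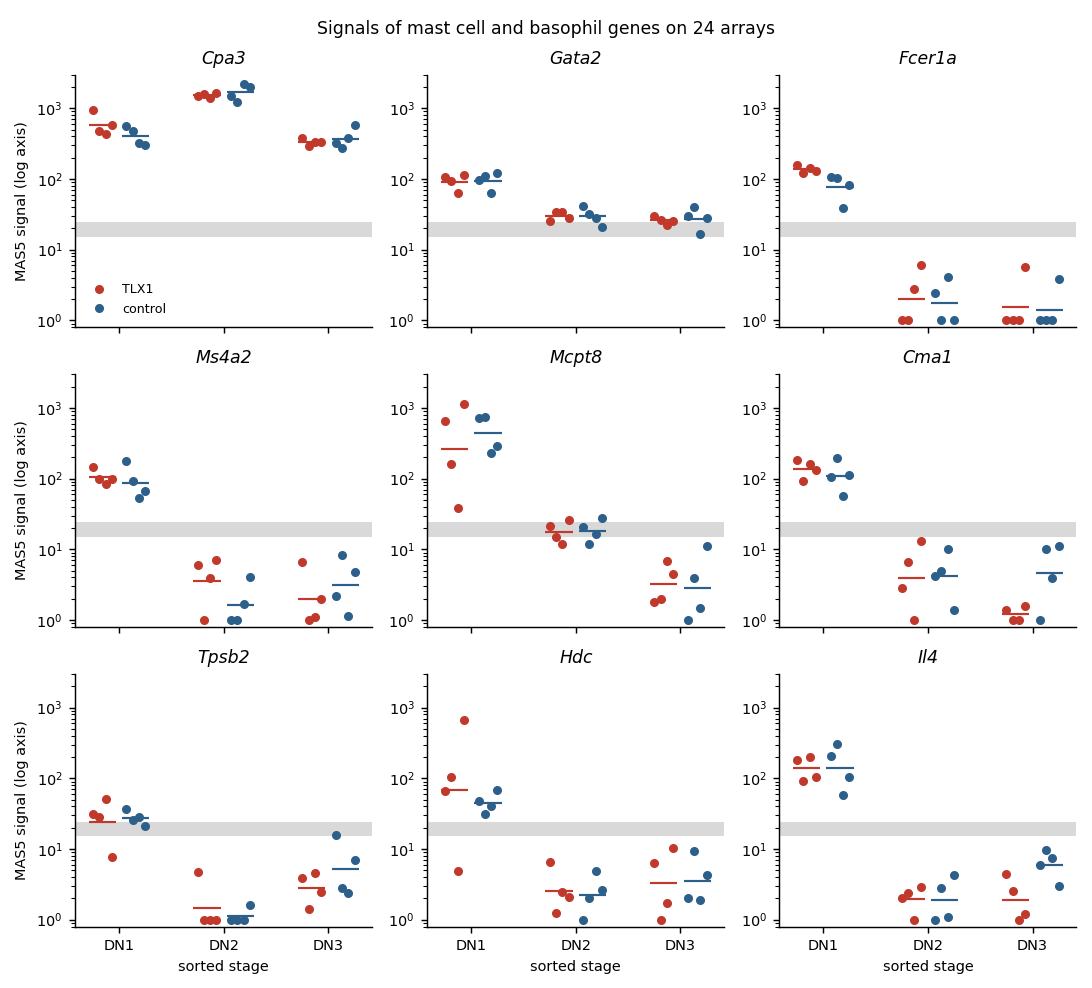
MAS5 signal (log axis, values below 1 drawn at 1) of the 9 measured members by sorted stage, with 1 point per pool (n = 4) for TLX1 (red) and control (blue), a bar at the mean of the log2 signals and a grey band from the lowest to the highest array median (15.1 to 24.3). Cpa3 peaks at DN2, Gata2 stays low but above its own array median on all DN2 arrays, and the other genes are higher at DN1 than later, with Tpsb2 close to the band at DN1 and Mcpt8 reaching it at DN2.

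On their main probe sets, the receptor genes were bright at DN1 and dark later. Fcer1a had DN1 signals of 160, 123, 145 and 128 in TLX1 pools 1 to 4 and of 108, 103, 38.4 and 82.8 in control pools 1 to 4, and at most 6.12 on any DN2 or DN3 array. Set against the array median, its DN1 signal was at least 8.54-fold higher than at DN2 in TLX1 and at least 4.43-fold higher in control pools. Ms4a2 had 144, 98.8, 85.3 and 99.2 in TLX1 and 177, 91.6, 53.7 and 67.3 in control DN1 thymocytes, and at most 8.22 later. It was at least 6.47-fold higher at DN1 than at DN2 in TLX1 and at least 5.03-fold higher in control pools. A second Ms4a2 probe set (1421475_at) was dimmer, with 4.15 to 24.7 in TLX1 and 0.807 to 11.9 in control DN1 thymocytes. At DN1 it was near background in 2 of 4 TLX1 and 4 of 4 control pools. It did not pass the filter, and its log2 difference of DN2 and DN1 was -2.59 ± 1.03 in TLX1 and -0.70 ± 0.99 in control pools. On the main probe sets, the DN1 and DN2 arrays did not overlap for either chain in either genotype. This was so for 25.1% of all probe sets tested in control and 35.5% in TLX1 pools.

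Cpa3 was above background on all 24 arrays, and was the only member called higher at DN2 than at DN1. Its signals at DN1 were 953, 481, 431 and 589 in TLX1 and 568, 483, 320 and 298 in control pools. At DN2 they were 1502, 1571, 1411 and 1631 in TLX1 and 1512, 1216, 2180 and 2017 in control pools, above every DN1 array. At DN3 they fell to 385, 290, 331 and 338 in TLX1 and 318, 270, 380 and 581 in control pools. The log2 difference of DN2 and DN1 was 1.39 ± 0.18 (SE) in TLX1 (adjusted p = 0.000527) and 2.07 ± 0.32 in control pools (adjusted p = 0.00173), with a rise in 4 of 4 pools of each genotype. From DN2 to DN3 Cpa3 fell in all 4 pools of each genotype, with a log2 difference of -2.19 ± 0.18 in TLX1 (adjusted p = 0.00266) and of -2.18 ± 0.32 in control pools (adjusted p = 0.0396). The control value lost its call without any single pool (adjusted p 0.0875 to 0.272) at a like size. At DN3 Cpa3 was lower than at DN1 in TLX1 (log2 difference -0.80 ± 0.18, adjusted p = 0.00762), while in control pools the difference was -0.12 ± 0.32 (adjusted p = 0.808). The DN3 and DN1 difference in TLX1 minus that in control pools was -0.69 ± 0.38. It contains the DN1 difference between the genotypes, so it is given without a test.

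The other proteases were measured at DN1 with wide spread. Cma1 had DN1 signals of 183, 91.1, 160 and 131 in TLX1 and 106, 195, 56.9 and 113 in control pools, and at most 13.3 at DN2 and DN3. Its DN1 signal was at least 8.44-fold higher than at DN2 in TLX1 and at least 6.19-fold higher in control pools. Mcpt8 had 645, 159, 38.9 and 1149 in TLX1 and 718, 749, 229 and 291 in control pools, so that the lowest and highest of all 8 values were both in TLX1 pools. At DN2 its signals were 11.7 to 26.3 in TLX1 and 12 to 27.6 in control pools, with 1 of 4 near background in each, and at DN3 they were 1.79 to 6.87 and 0.884 to 11.3. Mcpt8 was lower at DN2 than at DN1, with a log2 difference of -3.88 ± 0.86 in TLX1 (adjusted p = 0.00647) and of -4.57 ± 0.69 in control pools (adjusted p = 0.00153). Tpsb2 was the dimmest member, with 31, 28.5, 51 and 7.77 in TLX1 and 36.5, 25.7, 28 and 21.4 in control DN1 thymocytes, close to the array medians, and its DN1 signal was at least 1.5-fold higher than at DN2 in TLX1 and at least 1.58-fold higher in control pools.

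Gata2 kept a low signal after DN1 on its main probe set. It had 107, 93.1, 63.9 and 112 in TLX1 and 95.5, 111, 62.3 and 122 in control DN1 thymocytes, 25.2 to 34.4 and 20.9 to 41.4 at DN2, and 22.3 to 30.3 and 16.4 to 39.6 at DN3. The DN1 arrays lay above every DN2 and DN3 array. It fell from DN1 to DN2, with a log2 difference of -1.60 ± 0.19 in TLX1 (adjusted p = 0.000352) and of -1.67 ± 0.24 in control pools (adjusted p = 0.00138). From DN2 to DN3 the log2 difference was -0.22 ± 0.19 in TLX1 (adjusted p = 0.506) and -0.13 ± 0.24 in control pools (adjusted p = 0.881). The second Gata2 probe set (1428816_a_at) was dimmer, with 20 to 59.8 at DN1, and near background on 7 of 8 DN2 and on all 8 DN3 arrays. It was called lower at DN2 than at DN1 in TLX1 pools (-1.95 ± 0.30, adjusted p = 0.00119) and not in control pools (-1.08 ± 0.41, adjusted p = 0.0715). It was called lower at DN3 than at DN2 in control pools (-2.69 ± 0.41, adjusted p = 0.0459) and not in TLX1 pools (-0.96 ± 0.30, adjusted p = 0.124). The probe sets thus differ on whether Gata2 changed after DN2 and, in control pools, on the call from DN1 to DN2.

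Hdc and Il4, the mediator genes, were likewise DN1 genes. Hdc had 66, 104, 4.96 and 677 in TLX1 and 48.5, 31.2, 40.2 and 68.2 in control DN1 thymocytes, and at most 10.3 later. The control pools lay close together, while the TLX1 pools ran from a near-background value to the highest of all. Il4 had 183, 93, 200 and 106 in TLX1 and 204, 303, 57.9 and 105 in control DN1 thymocytes, and at most 9.55 later. The DN1 signal of Il4 was at least 8.51-fold higher than at DN2 in TLX1 and at least 8-fold higher in control pools.

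By limma with Benjamini-Hochberg adjustment over 27022 probe sets, 8 of 9 measured members were called lower at DN2 than at DN1 in control pools, where 20.5% of all probe sets were, and 1 (Cpa3) was called higher, as were 18.5%. In TLX1 pools the counts were again 8 lower, beside 26.8% of all, and 1 higher, beside 23.7%. At DN3 against DN1, 8 of 9 were lower in control pools (18.4% of all) and 0 higher (18.7%), and 9 of 9 were lower in TLX1 pools (21%) and 0 higher (24.2%). The call of Hdc at DN3 in TLX1 was lost without TLX1 pool 2 (log2 difference -3.65 against -4.41 with all pools, adjusted p = 0.0647). That of Tpsb2 at DN3 was lost in both genotypes with the median over its probe sets (-1.12 in each, adjusted p = 0.0517 in control and 0.0981 in TLX1 pools). Between DN3 and DN2, Cpa3 alone was called, lower in each genotype, beside 0.303% of all probe sets lower and 0.107% higher in control and 0.833% lower and 1.08% higher in TLX1 pools. At DN3 against DN2, 4 members in control pools had an unadjusted p under 0.05, with Cpa3 and Mcpt8 lower and Tpsb2 and Il4 higher. In TLX1 pools 3 did, Cpa3, Mcpt8 and Cma1, all lower. Tpsb2, Il4 and Cma1 were near background on all DN2 and DN3 arrays. The share of all probe sets at this threshold was not counted. The median log2 difference of DN2 and DN1 over the 9 members was -4.60 in control and -4.77 in TLX1 pools, beside -0.046 and -0.063 over all probe sets tested. As 6 of the 9 were selected for the fit through DN1, these counts and medians describe the members and support nothing further.

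**Figure D2:**
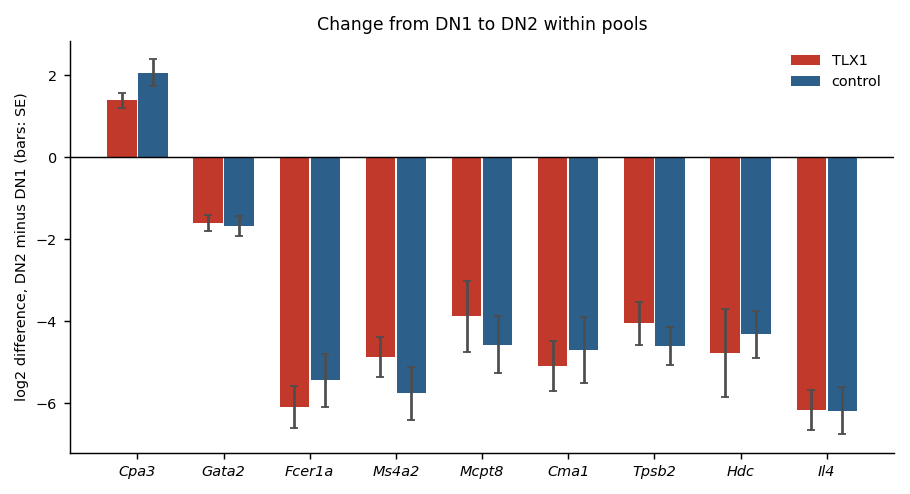
Log2 difference of DN2 and DN1 (y axis, with SE from the limma fit with pools as a block) of the 9 measured members in TLX1 (red) and control (blue) pools, n = 4 pools each. Cpa3 is above 0, Gata2 is at -1.60 and -1.67, and the other 7 are between -3.88 and -6.18, with sizes that depend on the floor of 1 where DN2 was near background.

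A list of 32 other mast cell and basophil genes, of which 29 had a probe set and 24 passed the filter, gave the setting. In control pools 14 of the 24 were lower and 3 higher at DN2 than at DN1, beside 20.5% and 18.5% of all probe sets, and in TLX1 pools 16 were lower and 2 higher, beside 26.8% and 23.7%. At DN3 against DN1 it was 17 lower and 2 higher in control (18.4% and 18.7% of all), and 20 lower and 2 higher in TLX1 pools (21% and 24.2%). Of the 24, Csf2rb2, Il13, Mcpt1, Mcpt4, Tph1 and Tpsab1 were near background on all 16 DN2 and DN3 arrays and passed the filter only through DN1, so their lower calls, 5 or 6 in each of these counts, were built in. The chymase genes Mcpt1 and Mcpt2, expressed by mucosal mast cells, were bright at DN1, with Mcpt1 signals of 1576, 885, 1014 and 621 in TLX1 and 571, 704, 354 and 607 in control pools, and Mcpt2 signals of 1585, 1164, 1215 and 692 in TLX1 and 881, 1078, 306 and 624 in control pools. Mcpt1 was at least 59.8-fold higher at DN1 than at DN2 in TLX1 and at least 31.2-fold higher in control pools. Fcer1g, the γ chain that FcεRI shares with other Fc receptors, was lower at DN2 than at DN1, by a log2 difference of -4.64 in TLX1 (adjusted p = 3.44e-06) and of -4.61 in control pools (adjusted p = 0.000355). Srgn, the core protein of granule proteoglycans in many blood cells, was not called (-0.29 in each genotype, adjusted p = 0.0563 and 0.26). Alox5ap, which serves leukotriene synthesis, was higher at DN2, by 0.73 in TLX1 (adjusted p = 0.012) and 1.47 in control pools (adjusted p = 0.000459). Csf2rb, the β chain shared by the IL-3, IL-5 and GM-CSF receptors, was lower, with differences of -3.34 in TLX1 (adjusted p = 2.58e-05) and -2.97 in control pools (adjusted p = 3.79e-05).

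Markers of several other cell types moved with the members between stages, and those of multipotent progenitors did not move as 1 group. Of all probe sets, 20.5% in control and 26.8% in TLX1 pools were lower at DN2 than at DN1, and 18.5% and 23.7% were higher. Genes of these lists could also pass the filter through DN1 alone, and how many did was not counted. Of the monocyte, macrophage and neutrophil list, 11 of 12 in control and 12 of 12 in TLX1 pools were lower at DN2 than at DN1, and the summed signal of the list ran from 17258 to 20670 in control and from 5129 to 42614 in TLX1 DN1 thymocytes, against 1096 to 1241 and 1069 to 1694 at DN2. Of the dendritic cell list 7 of 8 and 8 of 8 were lower, and of the list of NK cells and innate lymphoid cells 8 of 9 and 9 of 9 were, with summed signals of 14028 to 33675 at DN1 and 4331 to 5753 at DN2. Of 9 multipotent progenitor genes, 3 were higher and 3 lower at DN2 than at DN1 in control pools, and 1 higher and 4 lower in TLX1 pools, while their summed signal was 493 to 1178 at DN1 and 1388 to 1811 at DN2. Of the 5 eosinophil genes listed, 4 had a probe set. The eosinophil genes Epx, Prg2, Il5ra and Ccr3 did not pass the filter, and their summed signal was at most 64.6 at DN1. The T lineage genes Cd3g and Bcl11b had mean signals of 3250 and 1816 at DN1. On the T lineage list, 5 of 9 rose and 2 fell from DN1 to DN2 in each genotype. Their part in the stage differences of the members was not tested.

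The study compared TLX1 and control thymocytes before tumours formed at DN1, DN2 and DN3, and listed the most differentially expressed genes at DN3. Here the comparison at DN1 is described in most detail. Fcer1a was the only measured member whose TLX1 and control pools did not overlap, with a log2 difference of 0.84 ± 0.33 (SE, TLX1 minus control), which is 1.79-fold. The groups of 1.23% of all 27022 probe sets did not overlap at DN1. The lowest control value, 38.4 in pool 3, was on an array that stood apart, and without it the difference was 0.51, and 0.56 without TLX1 pool 2 as well. Cpa3 had a difference of 0.54 ± 0.32, with groups that overlapped. It was 0.30 without TLX1 pool 1, which had the highest signal of 953, and 0.52 without the 2 pools that stood apart. For the β chain gene Ms4a2 it was 0.26 ± 0.37, and 0.05 without them. A dimmer second probe set of Ms4a2 (1421475_at), near background on most of these arrays, gave 1.83 ± 0.88 in the same direction.

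Cma1 had a difference of 0.35 ± 0.38, which was 0.23 without the 2 pools that stood apart and 0.04 without control pool 3 alone. Gata2 had -0.04 ± 0.27, and -0.25 without the 2 pools, and its second probe set gave 0.41 ± 0.35. Il4 had -0.01 ± 0.52 and Tpsb2 -0.17 ± 0.52, and without the 2 pools they were at -0.25 and -0.24. Mcpt8 had -0.74 ± 1.00 and Hdc 0.62 ± 1.25, with an SE above the difference in each case, and without the 2 pools they were at -0.81 and 0.37. The sign of these 2 rested on single pools: without TLX1 pool 3, Mcpt8 was at 0.17, and without TLX1 pool 4, Hdc was at -0.48. The median over the 9 members was 0.26 beside 0.010 over all probe sets tested, 5 of 9 were above 0, and the median was 0.05 without the 2 pools that stood apart. It was 0.03 without control pool 3, 0.13 without control pool 4 and 0.11 without TLX1 pool 1. A positive DN1 median was not particular to the members. It was 0.36 for the monocyte, macrophage and neutrophil list, 0.25 for multipotent progenitors and 0.28 for the eosinophil genes, which did not pass the filter. For NK and innate lymphoid cells it was 0.10, for dendritic cells 0.09 and for the T lineage -0.06.

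**Figure D3:**
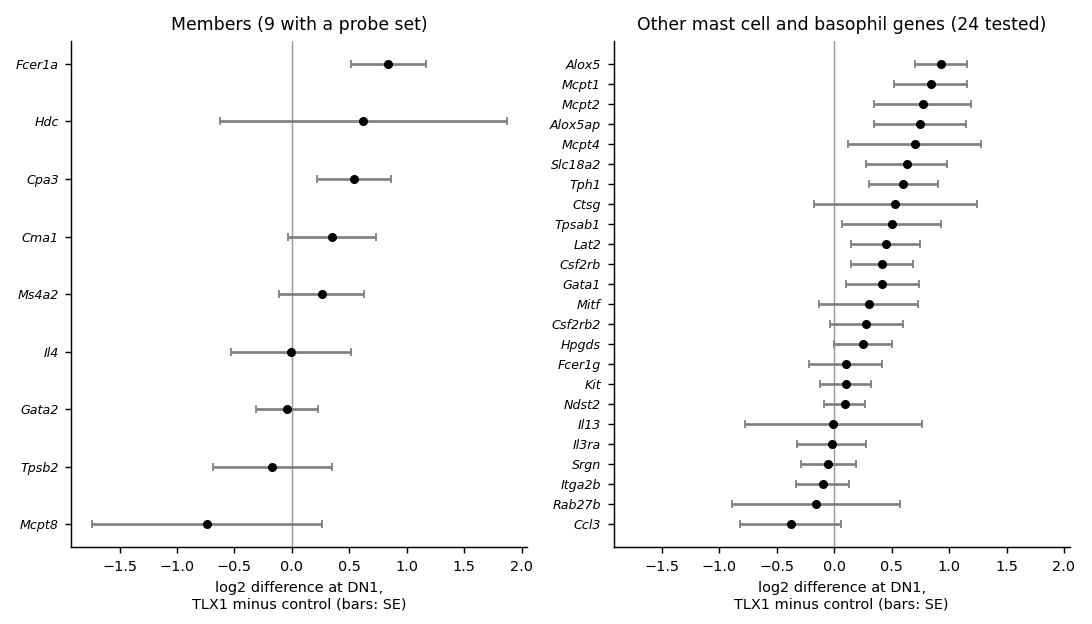
Log2 difference of TLX1 and control pools at DN1 (x axis, point with SE from limma, n = 4 pools against 4) for the 9 measured members and for the 24 tested genes of the list of other mast cell and basophil genes. Fcer1a has the highest value among the members at 0.84 and Mcpt8 the lowest at -0.74, and the SE bars of 7 of the 9 members cross 0.

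Of the list of other mast cell and basophil genes, 0 of 24 were called at DN1 by limma (lowest and highest adjusted p both 1), where 1 of 27022 probe sets was called (0.0037%), and 2 had an unadjusted p under 0.05. The share of all probe sets with an unadjusted p under 0.05 at DN1 was not counted. The median log2 difference over the 29 genes of the list with a probe set was 0.30. It was 0.36 without the 2 pools that stood apart, where again 0 of these genes were called. Alox5, the 5-lipoxygenase of leukotriene synthesis, was the only one of them whose groups did not overlap, with 217, 162, 159 and 209 in TLX1 and 116, 126, 72.9 and 83.4 in control pools and a difference of 0.93 ± 0.23 (chosen after its values were seen, adjusted p = 1). Mcpt1 had 0.84 ± 0.32 and Mcpt2 0.77 ± 0.42. Without the 2 pools Alox5 was at 0.85, Mcpt1 at 0.67 and Mcpt2 at 0.39. Mcpt1 and Fcer1a are on a supplementary list of DN1 genes that the study drew from these arrays, so their direction is no independent evidence.

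The members did not rank the 8 DN1 pools in 1 order. TLX1 pool 1 was above the mean of the 8 arrays for all 9 members, and control pool 3, which stood apart by Ptcra and Rag1, was below it for 8 of 9. Hdc and Mcpt8 split the other TLX1 pools. In TLX1 pool 4, Hdc was at 677 and Mcpt8 at 1149, and S100a8 and S100a9, calcium-binding proteins of neutrophils and monocytes, were at 14224 and 14190, with Lyz2, a lysozyme of myeloid cells, at 7811. In TLX1 pool 3, Hdc was at 4.96 and Mcpt8 at 38.9, and S100a8, S100a9 and Lyz2 were at 1204, 1060 and 818. On the 6 other DN1 arrays S100a8 ran from 6795 to 9248. Of the 12 monocyte, macrophage and neutrophil genes measured, 8 were at their highest of the 8 DN1 arrays in TLX1 pool 4, and 4 (Csf3r, Lyz2, S100a8 and S100a9) were at their lowest in TLX1 pool 3. The others were not lowest there, among them Cd68 at 265, Csf1r at 464 and Cybb at 566. In the same TLX1 pool 3, Cma1 was at 160, Il4 at 200 and Tpsb2 at 51, the highest Tpsb2 signal of all 24 arrays. Whether other myeloid cells in the gate had a part in the Hdc and Mcpt8 values was not tested.

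**Figure D4:**
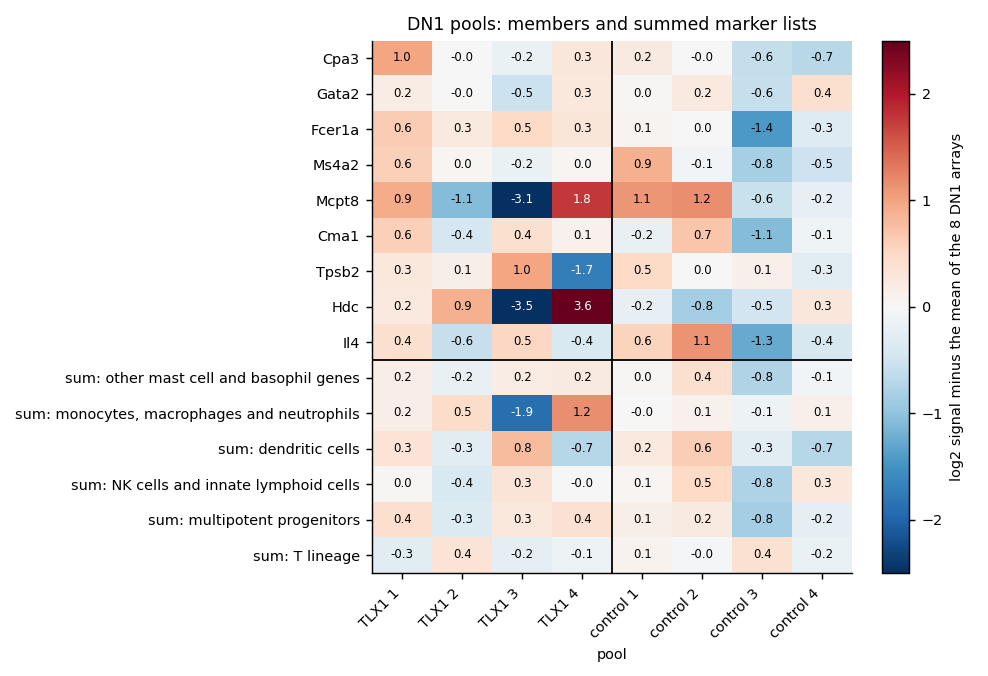
Log2 signal minus the mean of the 8 DN1 arrays for each pool (columns, TLX1 left and control right) and for the 9 members and 6 summed marker lists (rows), with the value written in each cell and colours that stop at 2.5 on either side. Hdc is at 3.60 in TLX1 pool 4 and at -3.49 in TLX1 pool 3, where the monocyte, macrophage and neutrophil sum is at 1.17 and -1.88.

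At DN2 and DN3 no member was called between TLX1 and control thymocytes by limma (0 of 9 at DN2, where 0.0037% of all probe sets were called, and 0 of 9 at DN3, where 0.0185% were). Unadjusted p under 0.05 was reached by 0 members at DN2 and by 2 at DN3 (Cma1 and Il4, lower in TLX1, both near background on all 8 arrays). How many of all probe sets reached it at these stages was not counted. The methods' t-test at its own thresholds called 0 members at DN2 (1.51% of all probe sets) and 1, Il4, at DN3 (3.06%), and 0 at either stage after Benjamini-Hochberg. Cpa3, the member with a clear signal at both stages, had a log2 difference of -0.14 ± 0.20 at DN2 (adjusted p = 1) and of -0.15 ± 0.24 at DN3 (adjusted p = 1). For Gata2 it was 0.02 ± 0.23 at DN2 and -0.06 ± 0.26 at DN3 (adjusted p = 1 for each). An interaction of genotype and stage between DN3 and DN2, fitted on the 24 arrays together, was called for 0 of 9 members. It reached an unadjusted p under 0.05 for 0 members. The share of all probe sets at either threshold was not counted for this interaction, so these counts describe the members only. Interactions with DN1 contain the DN1 difference between the genotypes and are not given as tests.

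The genes with the most similar profiles differed between the members as a set and Cpa3 alone. Over the 8 DN1 arrays, the mean profile of the 9 members was most like that of Cd34, a surface sialomucin of blood progenitors and mast cells (Pearson r = 0.989), followed by Ttc21b (0.938), 9330159M07Rik (0.931), Rnf13 (0.93), Clasrp (0.924) and Gid8 (0.924), the highest of 12112 genes compared. All but Gid8 had a higher median signal at DN2 than at DN1 in each genotype, unlike the members other than Cpa3. For Cd34 the medians were 89.1 against 45.3 in TLX1 and 89.4 against 44.6 in control pools. 9330159M07Rik was near background on most DN1 arrays. Control pool 3, which stood apart, had the lowest mean profile of the 8 arrays. Over all 24 arrays, Cpa3 was most like Btk, a tyrosine kinase of B and myeloid cells (r = 0.953), Lyl1, a bHLH factor of progenitors (0.923), Adgrg3 (0.907), Fgf3 (0.899), Clec4e (0.893) and Creg1 (0.852). These 6 were at their highest at DN2 in each genotype, as Cpa3 was. Lyl1, for example, had signals of 97.2 to 204 at DN1, 746 to 930 at DN2 and 95.1 to 144 at DN3 in TLX1 pools, and 70.1 to 151, 582 to 1047 and 136 to 167 in control pools. The arrays of a pool share animals and the arrays of a stage share the sort, so these correlations are descriptions.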

How the data were processed

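RNA of DN1, DN2 and DN3 thymocytes from 4 TLX1 and 4 control pools was hybridized to 24 Affymetrix mouse arrays. The deposited intensity values are linear MAS5 signals from Affymetrix Expression Console, which the submitters' processing notes name, and their 2% trimmed mean is 150 on every array (checked). Detection flags are not used here, and the number of arrays limits the precision. The 10 members, the lists and the tests were chosen with earlier results of these data known.

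Of 45101 probe sets, 64 controls served only for RNA quality. Of the other 45037, 34945 match 1 gene, 932 several (not named) and 9160 none. Signals were floored at 1 and log2 transformed without rescaling, and the 60% with the highest mean signal were kept (27022, mean at least 11.1), a choice that keeps genes bright at a single stage, and a filter on the mean log2 signal was added as an alternative after seeing the data. TLX1 and control were compared per stage, and stages within a genotype with the pool as a block, by limma 3.58.1 in R 4.3.3, with p-values adjusted by Benjamini-Hochberg across what was kept and a call at an adjusted p under 0.05, and interactions over all arrays. The labels tie the 3 stages to a pool, and deviations from group means of the same pool correlated at 0.19 to 0.62. Where all 4 arrays of the dim group were near background, "at least N-fold" is the bright group's mean log2 signal against, per array, the higher of the array's median and the gene's own signal. The scripts were tested on simulated data. The genes named of a list are among the 6 brightest at DN1 unless said to be chosen after their values were seen, with Il5ra, Ccr3, Epx and Prg2 as the whole eosinophil list. Exceptions are the other mast cell genes near background on all DN2 and DN3 arrays, named in full, and Csf3r and Cd68, named after their values were seen. Genes with a like profile are the 6 with the highest Pearson r. Alternatives were quantile normalization, median centring, no or a stricter filter (40%), an offset of 32, a floor of 16, the median over probe sets, array weights, random, fixed or no blocks, sex, the replicate block, the methods' t-test (p at most 0.05, fold change at least 1.4) and leaving out pools, for the list of other mast cell genes at DN1 as an alternative chosen after seeing the data. Promoters are from RefSeq (GRCm38.p6), and figures were drawn with matplotlib 3.10.9.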

Additional observations from a re-analysis of the deposited data

Results flagged for a closer look

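Hdc in TLX1 DN1 thymocytes had a signal of 677 in pool 4, where the next pool was at 104. The gap was 0.853 of the range of the 4 pools, above the critical value of Dixon's test at the 95% level on signals, and it did not pass on the log2 scale. It was the only one of 28 groups of 4 pools with signal above background to pass, and chance flags about 1 in 20 groups. The second Hdc probe set also had its highest DN1 signal in this pool, 204, against 39.6, 36.7 and 8.53 in TLX1 pools 1 to 3.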

How the results depend on the processing

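The changes from DN1 to DN2 kept their direction and their call for every member tested under each alternative. For Fcer1a, Ms4a2, Cma1, Tpsb2, Hdc and Il4, which entered the fit only through DN1, a lower value was built into their selection. The filter on the mean log2 signal tested 5 members, and called 5 at DN2 against DN1 in each genotype, 5 at DN3 against DN1 in TLX1 and 4 in control pools. The 40% filter tested 6 members and called 5 in the last of these. For control DN3 against DN2, where 1 member (Cpa3) was called, the count was 0 without a filter, 0 without the 2 pools that stood apart, and 0 to 0 when each pool was left out. It was 2 with array weights and 2 with the pool as a random block, with Tpsb2 (near background) added. Leaving out each pool gave 8 to 9 for TLX1 DN3 against DN1, and the methods' t-test at its thresholds called 1 member at DN3 between TLX1 and control. Over all probe sets, the number called ranged across alternatives from 5760 to 14638 for control DN2 against DN1, from 5724 to 13815 for control DN3 against DN1, from 9 to 2233 for control DN3 against DN2 and from 34 to 3588 for TLX1 DN3 against DN2.

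With the replicate block, the DN1 median of the members was 0.26, and 0 members were called at DN2 and 0 at DN3. Same-numbered pools of the 2 genotypes share only a number (correlations of their deviations -0.35 to 0.48). Without the pool block (no replicate block) in the stage contrasts, 9 members were called at DN2 against DN1 in each genotype. The DN1 median was 0.08 with array weights, -0.01 over the 5 members of the log2 filter, and 0.03 to 0.36 when each pool was left out. The Ms4a2 difference at DN1 was 1.04 with the median over its probe sets.

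Differences that were not called changed sign in places, and the cause was not tested. Cpa3 between TLX1 and control at DN3 was 0.07 without control pool 4, in a range of -0.30 to 0.07 over single pools left out. Cpa3 at DN3 against DN1 in control pools was 0.08 with median centring, 0.13 without pool 1 and 0.12 without pool 2 (range -0.48 to 0.13). Gata2 between TLX1 and control at DN2 was -0.22 with the median over probe sets, -0.13 with array weights and -0.06 without the 2 pools that stood apart, and, leaving out single pools, 0 without control pool 3, -0.15 without control pool 4, -0.04 without TLX1 pool 2 and -0.03 without TLX1 pool 3 (range -0.15 to 0.18). At DN3 it was 0.61 with the median over probe sets, 0.12 without control pool 2 and 0.01 without TLX1 pool 3 (range -0.31 to 0.12).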
